A study of Mus musculus with 4 samples.

Results

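Cplx2, Lsp1, Cd52 and Myl10 are 4 genes of the 32285 counted, grouped because their RNA was nearly absent from the B-lineage cells of the Mll3/4 deleted library. They were chosen on their levels in cells with at least 3 Cd79a transcripts of the deleted library and of a control B220lo library. The contrast between those libraries is therefore given as a description, with no test. A transcript is counted as a unique molecular identifier (UMI), and a level is the summed UMIs of a gene relative to all UMIs of the same cells, on the usual CPM scale. Cd79a encodes a signalling chain of the B-cell receptor and was used to mark B-lineage cells.

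The study profiled CD45.2+ mouse bone marrow 10 weeks after transplantation with the 10x 5′ kit. There was 1 library per group: control Kit+, Mll3/4 deleted Kit+, Mll3/4SI Kit+ and control B220lo. Mll3 and Mll4, encoded by Kmt2c and Kmt2d, are histone methyltransferases, Kit is a receptor of stem and progenitor cells, and B220lo marks developing B cells. The labels expand neither SI nor the means of deletion, and give neither the number of donors per library nor the residual cells of the host. CD45.2+ and the transplantation setting were common to all groups. The deleted library and the B220lo library differed in sort as well as in genotype, and these cannot be told apart. With 1 library per group no difference could be tested between conditions, and every interval covers counting error only.

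B cells are built in the marrow in ordered steps. Pro-B cells carry Kit and Dntt, the enzyme that adds bases at receptor joints, and rearrange the heavy chain first. Pre-B cells gain Il2ra and rearrange a light chain, and immature B cells then gain Ms4a1, the CD20 antigen. Cplx2 encodes a complexin, a protein that binds assembled SNARE complexes and controls regulated exocytosis. Lsp1 encodes a leukocyte actin-binding phosphoprotein, Cd52 a very short glycosylphosphatidylinositol (GPI)-anchored surface glycoprotein of lymphocytes, and Myl10 a regulatory light chain of myosin known from precursor lymphocytes. The 4 genes thus have no common family or biochemical role.

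The 4 genes lie on different chromosomes in GRCm38. Cplx2 (ENSMUSG00000025867) spans chromosome 13 from 54371349 to 54383917 on the plus strand with 1 GENCODE transcript. Lsp1 (ENSMUSG00000018819) spans chromosome 7 from 142460809 to 142494867 on the plus strand with 12 transcripts. Cd52 (ENSMUSG00000000682) spans chromosome 4 from 134082448 to 134095082 on the minus strand with 3 transcripts, and Myl10 (ENSMUSG00000005474) spans chromosome 5 from 136693146 to 136701094 on the plus strand with 6 transcripts. Cd52 overlaps Crybg2 and Lsp1 overlaps Prr33, in each case on the other strand. Whether the counting used strand is not given in the sources used here. Crybg2 was at 6.95 CPM in deleted cells without contig and 6.13 in B220lo cells without contig, where Cd52 differed.

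RefSeq start-site windows (GRCm38.p6, plus strand) were at hand for Cplx2 and Myl10, and the 250 bases before the start are shown as the sequence context of genes chosen for being low in the same group of cells, which is no evidence that they move together. Capitals mark the E-box CANNTG, read by basic helix-loop-helix factors, and the EBF core CCCNNGGG, read by the early B-cell factor. Both motifs are the same on either strand. The Cplx2 window is chr13:54302306-54302555, upstream of a RefSeq start that is not a start in the GENCODE annotation. The first Myl10 window is chr5:136692896-136693145 and the second is chr5:136693426-136693675, which lies within the gene but in none of its exons.
Cplx2: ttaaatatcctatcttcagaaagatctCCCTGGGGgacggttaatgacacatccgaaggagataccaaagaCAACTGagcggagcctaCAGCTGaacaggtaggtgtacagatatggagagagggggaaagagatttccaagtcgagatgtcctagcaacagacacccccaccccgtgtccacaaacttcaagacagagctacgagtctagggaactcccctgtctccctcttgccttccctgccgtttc
Myl10, first start: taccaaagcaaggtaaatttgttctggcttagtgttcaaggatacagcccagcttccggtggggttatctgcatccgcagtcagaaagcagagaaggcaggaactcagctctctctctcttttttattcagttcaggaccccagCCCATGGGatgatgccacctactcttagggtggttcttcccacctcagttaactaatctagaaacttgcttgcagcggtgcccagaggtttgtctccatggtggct
Myl10, second start: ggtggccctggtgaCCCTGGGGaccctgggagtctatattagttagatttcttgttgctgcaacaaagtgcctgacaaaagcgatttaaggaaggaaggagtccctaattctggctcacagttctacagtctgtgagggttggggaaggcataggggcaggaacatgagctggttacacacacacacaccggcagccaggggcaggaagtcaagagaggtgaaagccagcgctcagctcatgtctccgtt
The Cplx2 window held 2 E-boxes and 1 EBF core, and each of the 2 Myl10 windows shown held 1 EBF core and 0 E-boxes. The window of the third Myl10 start held 0 of either. Of 32851 windows of the same length, 66.2% held an E-box and 11.8% an EBF core. Searched on both strands, TGGGAA (Ikaros core) was in 21.6% of all windows, TGNGGT (RUNX core) in 40.1% and GGAA (ETS core, contained in TGGGAA) in 93.4%. The Cplx2 window held 0, 0 and 4 of these, the first Myl10 window 1, 3 and 3, and the second 0, 0 and 5. These are matches of letters and show no binding.

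After the cell filters, 51679 of 56502 barcodes remained, between 11051 and 15380 per library. Total UMIs per library were 85445426 to 166327773, and the median UMIs per barcode were 11964 in control Kit+, 6761 in deleted, 12148 in Mll3/4SI and 3272 in B220lo. Between 214 and 345 barcodes were shared by each pair of libraries. The deleted library stood apart in the Y-linked genes Ddx3y, Eif2s3y, Kdm5d and Uty, which summed to 149 CPM there and to at most 0.515 CPM in the other 3. Y-linked RNA and genotype therefore cannot be told apart. Kmt2c was at 51.0 CPM and Kmt2d at 19.3 CPM in deleted cells without contig, against 132.0 and 40.2 CPM in B220lo and 107 and 7.16 CPM in control Kit+ cells without contig. In these 18 control Kit+ cells, 3 counts amount to 21.5 CPM. Their Kmt2d value lies below that floor and gives no order against the deleted cells. In cells with 0 Cd79a they were at 47.3 and 20.4 CPM in deleted and 58.1 and 23.9 CPM in control Kit+. The labels do not name the deleted exons, and a 5′ tag outside them does not check a deletion.

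Cells with at least 3 Cd79a UMIs were split by their assembled receptor sequences (contigs) into cells with no contig, with a heavy chain only, and with a light chain. The deleted Kit+ library held 12591 such cells, 9649 without contig, 2910 with heavy chain only and 32 with a light chain. In B220lo there were 10839, of which 2725, 1539 and 6575 fell in these states. Control Kit+ had 47, 18 without contig and 29 with a light chain, and Mll3/4SI had 28, 6 and 22. The deleted cells without contig carried pro-B genes, with Dntt at 1290.0 CPM, Igll1 (surrogate light chain) at 2736, Vpreb1 (its partner) at 2832, Rag1 (recombinase) at 208 and Pax5 (B-lineage factor) at 317 CPM. The matching B220lo cells were at 470.2, 1158, 971, 173 and 450.4 CPM. Summed over cells, both sets thus carried markers of early B-lineage cells, but the shares of cells with such markers differed. Without matching depth, Dntt was in 97.7% of deleted and 27.4% of B220lo cells, and Kit in 83.4% and 5.91%. Il2ra was in 0% and 28.1%, and Ms4a1 in 0.0415% and 16.9%. Kit, by which the deleted library was sorted, was at 365 CPM in deleted and 18.6 CPM in B220lo cells, and Il2ra was at 0 and 88.9 CPM.

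In cells without contig, all 4 genes were lower in the deleted library by between 86.6-fold and 1484-fold. Cplx2 was at 2.19 CPM (95% Poisson interval 1.86 to 2.55, 163 UMIs) in deleted cells and at 284 CPM (275 to 293, 3888 UMIs) in B220lo cells, 129.8-fold lower (exact conditional binomial interval 111 to 153). Lsp1 was at 0.523 CPM (0.372 to 0.715, 39 UMIs) against 297 CPM (288 to 306, 4072 UMIs), 568-fold lower (415 to 800.2). Cd52 was at 5.46 CPM (4.94 to 6.01, 407 UMIs) against 473 CPM (461 to 484, 6477 UMIs), 86.6-fold lower (78.3 to 96.0). The B220lo intervals lay far above the deleted ones for these 3 genes. Myl10 was at 0.0939 CPM (0.0377 to 0.193, 7 UMIs in 9649 cells) against 139 CPM (133 to 146, 1909 UMIs), 1484-fold lower (719 to 3696).

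The same order of libraries held once a heavy chain was present. Deleted cells with heavy chain only had Cplx2 at 2.55 CPM against 160.4 in B220lo, 62.8-fold lower (48.4 to 82.9). Lsp1 was at 1.04 against 195 CPM, 188-fold lower (126 to 294), and Cd52 at 8.44 against 360.0 CPM, 42.6-fold lower (36.9 to 49.5). Myl10 was at 0.260 CPM, from 6 UMIs, against 27.8 CPM, 107-fold lower (48.4 to 294). Within B220lo, Myl10 was 139 CPM without contig, 27.8 with heavy chain only and 20.6 with a light chain, and these 3 counting intervals did not overlap (133 to 146, 24.5 to 31.3, and 18.998 to 22.2). Cplx2 had the same order, 284, 160.4 and 145 CPM. Lsp1 and Cd52 were instead highest with a light chain, at 413 and 1065 CPM. The smaller fold of Myl10 in heavy-chain cells went with a lower level in B220lo (27.8 against 139 CPM) and a higher value in deleted cells (0.260 against 0.0939 CPM). The intervals of the deleted values overlapped (0.0953 to 0.565 and 0.0377 to 0.193 CPM), and 1 cell held 5 of the 6 UMIs behind the first.

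**Figure D1:**
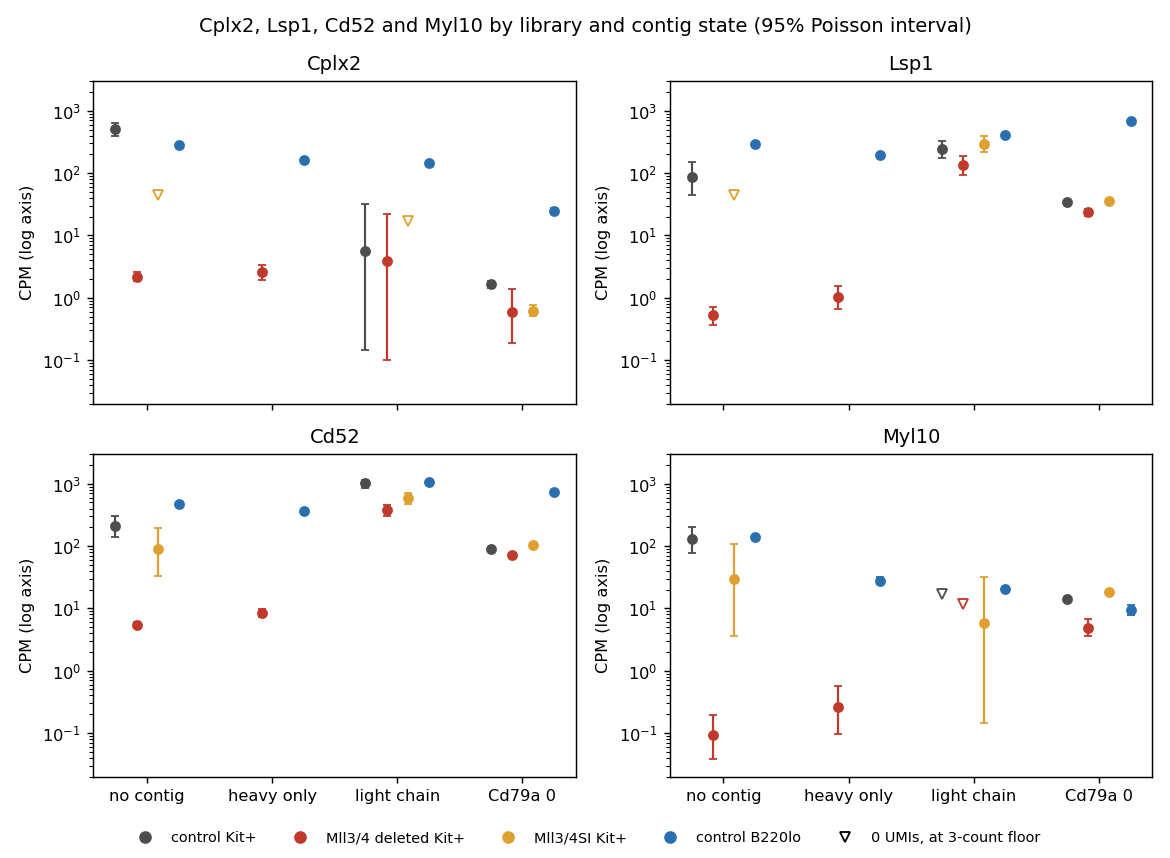
Summed levels of Cplx2, Lsp1, Cd52 and Myl10 (CPM, log axis) by library (colour) in Cd79a-positive cells of each contig state and in cells with 0 Cd79a UMIs, with 95% Poisson intervals and open triangles for 0 UMIs at the 3-count floor. Without contig, the deleted library sits between 0.0939 and 5.46 CPM and B220lo between 139 and 473 CPM.

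Against all genes, the members lay at the low end of the contrast, as their choice fixed. Of 11669 genes with at least 100 UMIs in the higher library, 5.47% were at least 4-fold lower and 4.73% at least 4-fold higher in deleted cells without contig, on log2(CPM + 1). All 4 members were past 4-fold lower, at ranks 9 (Lsp1), 18 (Myl10), 34 (Cplx2) and 40 (Cd52) from the lowest ratio, with log2 ratios of -7.61, -7.00, -6.48 and -6.20. The median of all genes was 0.01. With heavy chain only, 3.86% of 10337 genes were lower and 7.83% higher by that rule, and the members ranked 19 (Lsp1), 46 (Cplx2), 54 (Cd52) and 99 (Myl10). The members' counts were set by how they were chosen.

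**Figure D2:**
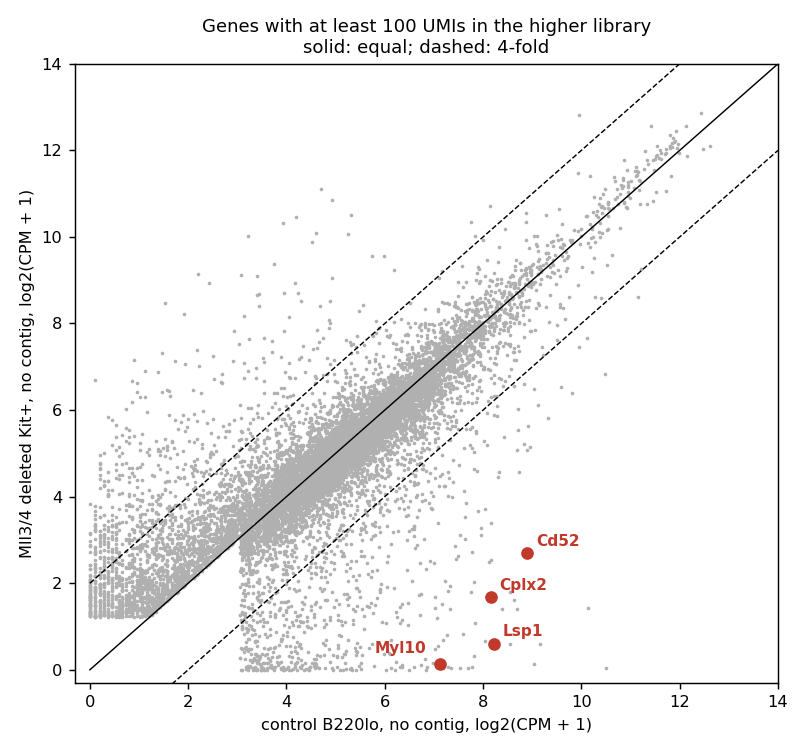
Each point is a gene with at least 100 UMIs in the higher library, by its log2(CPM + 1) in Cd79a-positive cells without contig of B220lo (x) and of the deleted library (y). The solid line marks equal levels, the dashed lines 4-fold, and the 4 members in red lie below the lower dashed line, with Myl10 nearest to 0 on the y axis.

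Detection per cell was read from the same UMIs as the levels, so it describes the contrast again and gives no separate support. Cells were thinned to 2000 UMIs, and 243 deleted and 466 B220lo cells without contig were too shallow and left out. Of 9406 deleted cells, 0.510% (Clopper-Pearson 0.376 to 0.676) had a Cplx2 UMI, 0.0213% (0.00258 to 0.0768) an Lsp1 UMI, 0.702% (0.543 to 0.892) a Cd52 UMI and 0.0106% (0.000269 to 0.0592) a Myl10 UMI. Of 2259 B220lo cells, the shares were 38.2% (36.2 to 40.3), 47.0% (44.9 to 49.1), 45.6% (43.5 to 47.7) and 10.8% (9.55 to 12.2). Without thinning, at median depths of 6444 and 3009 UMIs, the deleted shares were 1.58%, 0.187%, 2.43% and 0.0725%, and the B220lo shares 53.1%, 64.2%, 60.4% and 15.9%. Control Kit+ cells with 0 Cd79a, gated at 3 UMIs of a marker of another lineage, gave thinned shares for comparison. The erythroid Klf1 gate (median 21297 UMIs) had Lsp1 in 0.977%, Cd52 in 1.37% and Myl10 in 0.195% of cells, the lowest shares of the control Kit+ gates. The deleted shares of these 3 genes were lower. The intervals were apart for Lsp1 (lower bound 0.548% with Klf1) and overlapped for Cd52 (0.849 to 2.08% with Klf1) and Myl10 (0.0403 to 0.570%). Whether free RNA gave the UMIs in deleted cells was not tested. Cplx2 had another order, with 0.521% (0.225 to 1.02) in the Klf1 gate, 0.143% (0.0655 to 0.272) with Mpo, a granulocyte enzyme, 0.114% (0.0369 to 0.265) with Cd34, a progenitor marker, and 0.0602% (0.00152 to 0.335) with F13a1, a monocyte marker. It was 0.0778% (0.00197 to 0.433) with Cpa3, a mast cell protease, and 1.55% (0.709 to 2.92) with Pf4, a megakaryocyte gene. With Nkg7, listed as a T or NK gene, the share was 0.433% (0.286 to 0.630), and with Elane, a granulocyte gene, 0.166% (0.0759 to 0.315). The Nkg7 gate held 6237 of the 10988 control Kit+ cells with 0 Cd79a, so it cannot be read as T or NK cells. The interval of the deleted share overlapped those of the Klf1, Cpa3 and Nkg7 gates. It lay above those with Mpo, Elane, Cd34 and F13a1, and below that with Pf4. In the deleted library itself, cells with Mpo and 0 Cd79a had 0 Cplx2 UMIs, with an upper Poisson bound of 0.566 CPM. The cells without contig had 2.19 CPM (1.86 to 2.55). The median depths were 18065 and 6444 UMIs. An equal amount of free RNA per cell gives fewer CPM and a lower thinned share in deeper cells, so these comparisons do not measure it. In B220lo, the share of Cplx2 was 2.07% in cells with 0 Cd79a and at least 3 Siglech UMIs, a marker of plasmacytoid dendritic cells, against 38.2% in B-lineage cells without contig.

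**Figure D3:**
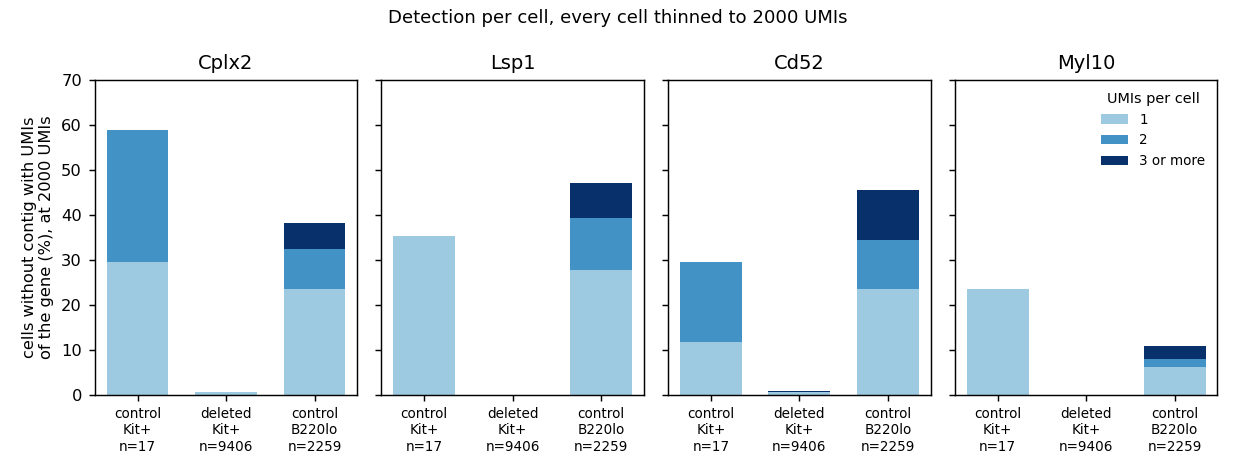
Percentage of Cd79a-positive cells without contig (y) with 1, 2, or 3 or more UMIs of each gene after thinning to 2000 UMIs, in control Kit+ (17 cells), deleted Kit+ (9406) and control B220lo (2259). The deleted bars stay at or below 0.702%, the share of Cd52.

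The few positive deleted cells differed by gene. Of all 12591 Cd79a-positive deleted cells, 211 had Cplx2, and 204 of them had a single UMI. Cd52 was spread otherwise: 60 cells with at least 3 UMIs held 55.2% of its 699 UMIs. Of these 60 cells, 27 had Mpo (a granulocyte enzyme) and 10 had Ms4a1, against 18.4% and 0.0408% of the cells without Cd52. These shares are not thinned, and the median depth was 13781.5 UMIs in the 60 cells and 6392 in the cells without Cd52. The 10 cells with Ms4a1 had a median of 2971 and the other 50 of 21488.5 UMIs. Lsp1 had 97 UMIs in 41 cells, and 12 cells with at least 3 UMIs held 60.8% of them. Of those 12 cells, 11 also had Cd52. Myl10 had 13 UMIs in 9 cells, 5 of them in 1 cell.

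Markers of other cells were summed over a list of 44 genes. They made up 1649 CPM in deleted cells without contig (5 of the 44 at 0), 1922 CPM with heavy chain only (10 at 0), 4535 CPM in B220lo cells without contig (1 at 0) and 3353 CPM with heavy chain only (4 at 0). When cells with 1% or more of their UMIs from this list were left out, 89 deleted and 37 B220lo cells without contig fell away. In the rest, the levels in deleted cells were 2.18 CPM for Cplx2, 0.234 for Lsp1, 3.40 for Cd52 and 0.0826 for Myl10, and the folds against B220lo became 134, 1278, 138 and 1746. Cplx2 and Myl10 hardly moved, while the residual Lsp1 and Cd52 fell. With heavy chain only the folds became 62.2, 874, 82.0 and 104.

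For Cd52 and Lsp1, the light-chain cells of the deleted library were the exception. These 32 cells had Cd52 at 378 CPM (307 to 461) and Lsp1 at 133 CPM (91.8 to 185), 2.82-fold (2.31 to 3.48) and 3.12-fold (2.23 to 4.50) below the B220lo light-chain cells. Cplx2 had 1 UMI in them (3.90 CPM, below the 3-count floor of 11.7 CPM) against 145 CPM in B220lo, 37.3-fold lower (6.68 to 1472). Myl10 had 0 UMIs, which allows up to 11.7 CPM by the same floor, against 20.6 CPM in B220lo. Splitting them by Ms4a1, 12 cells with a Ms4a1 UMI held 96 of the 97 Cd52 UMIs and 33 of the 34 Lsp1 UMIs. Cd52 stood at 1380 CPM and Lsp1 at 474 CPM in these 12 cells, and each had 1 UMI in the other 20. The B220lo light-chain cells with Ms4a1 were at 1736 and 549 CPM, and those without at 477 and 294 CPM.

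The same 12 cells also had Cd74, the invariant chain of MHC class II, in 12 of 12 cells at 10651 CPM, while the other 20 had 0 Cd74 UMIs. The Y-linked genes that set the deleted library apart had 18 UMIs in 10 of the 12 cells (259 CPM, 153 to 409) and 27 UMIs in 16 of the other 20 (144 CPM, 95.1 to 210.05). Igll1 was found in 5 of the 12 and in 19 of the 20 cells (1322 and 3101 CPM), and Dntt in 7 and 19 (1064 and 1465 CPM). Deleted cells without a light chain had Igll1 at 2701 and Dntt at 1301 CPM. The median depth was 2971 UMIs in the 12 and 8767 in the 20 cells, so these numbers of cells are not matched for depth. Markers of other cells summed to 257 CPM over the 32 cells. Whether Mll3 and Mll4 were deleted in the 12 cells was not tested.

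The Kit+ sort of the control gave a second comparison, in a library that the rule does not name for Cd79a-positive cells. The deleted cells in it are those on which the genes were chosen for being low. Its folds are therefore a description and give no independent support. The 18 control Kit+ cells without contig had between 3 and 27 Cd79a UMIs each, and Igll1 and Vpreb1 were found in all 18. Cplx2 ranged from 0 to 11 UMIs per cell with a median of 3.5, and 17 of the 18 cells had it. Lsp1 ranged from 0 to 3 (median 1, 10 cells), Cd52 from 0 to 7 (median 1, 10 cells) and Myl10 from 0 to 6 (median 0, 6 cells). At a similar median depth (6132 UMIs, against 6444), the 9649 deleted cells had Cplx2 in 152, Lsp1 in 18, Cd52 in 234 and Myl10 in 7 cells. The control and deleted cells were not alike in stage genes. Kit was in 38.9% of the control cells (179 CPM) and 83.4% of the deleted cells (365 CPM), and Dntt was at 651 and 1290 CPM. Mki67, a cycling marker, was in 83.3% (1095 CPM) and 48.6% (536 CPM).

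Summed over the 18 cells, Cplx2 was at 501 CPM (391 to 633), Lsp1 at 85.9 (44.4 to 150.04), Cd52 at 208 (139 to 298) and Myl10 at 129 CPM (76.4 to 204). The deleted cells were lower by 229-fold for Cplx2 (171 to 305), 164-fold for Lsp1 (78.3 to 320.2), 38.0-fold for Cd52 (25.1 to 55.5) and 1373-fold for Myl10 (547 to 3888). These are 18 cells of 1 library, so the spread between mice is unknown. Markers of other cells summed to 17794 CPM in them (20 of 44 at 0), since 2 cells had 935 and 209 Mpo UMIs and the rest at most 2. Without these 2 cells the markers were at 980.3 CPM, Cplx2 at 675, Lsp1 at 119.8, Cd52 at 283 and Myl10 at 163 CPM, and the folds were 310.5, 512, 83.3 and 1978 with the same limit on both libraries. Compared with B220lo without contig, the 18 cells had more Cplx2 (B220lo 1.77-fold lower, 1.37 to 2.24) and less Lsp1 and Cd52 (B220lo 3.46-fold and 2.28-fold higher), while the ratio of Myl10 was 1.08 (0.682 to 1.83).

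Mll3/4SI Kit+ had 6 cells without contig. They had 0 UMIs of Cplx2, which allows up to 45.0 CPM by 3 counts and 55.4 CPM by the Poisson interval, below the interval of the 18 control Kit+ cells (391 to 633 CPM). Cplx2 was thus in 0 of 6 cells (upper bound 45.9%) against 17 of 18 (lower bound 72.7%). Lsp1 also had 0 UMIs, with the same upper bound of 55.4 CPM, which overlaps the control interval of 44.4 to 150.04 CPM. Cd52 had 6 UMIs in 2 cells (90.1 CPM, 33.1 to 196) and Myl10 2 UMIs in 1 cell (30.03 CPM, 3.64 to 108), and both intervals overlapped those of the control. The 2 sets of cells were not alike in other measures. Igll1 was found in 5 and Vpreb1 in 4 of the 6 cells, against all 18 in the control, with a median of 36.5 against 11.5 Cd79a UMIs and a median depth of 10910.5 against 6132 UMIs. These are 6 cells of 1 library. Cells with a light chain had Cd52 at 589 CPM and Lsp1 at 297 CPM in Mll3/4SI (22 cells) and at 1008 and 245 CPM in control Kit+ (29 cells). Markers of other cells summed to 9395 and 10552 CPM in them (18 and 23 of 44 at 0). Without the 3 cells in each with 1% or more of their UMIs from these markers, Cd52 was at 769.7 and 1276 CPM and Lsp1 at 446 and 327 CPM. In all light-chain cells Cplx2 had 0 UMIs in the first and 1 in the second, and Myl10 1 and 0. A count of 0 allows up to 17.2 CPM for Cplx2 in the first and 17.1 CPM for Myl10 in the second.

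Since the B220lo sort held later cells, the members were followed along genes that mark steps of B-cell development. Myl10 went with Dntt most: B220lo cells without contig had 328 CPM with Dntt (746 cells) and 15.5 CPM without (1979 cells). It was at 289 CPM with Kit against 119 without, and at 13.4 CPM with Il2ra against 175 without. Cplx2 was at 431 CPM with Dntt and 187 without, and at 226 CPM with Il2ra and 300.3 without. Lsp1 ran the other way, at 209 CPM with Dntt and 355 without, and at 422 CPM with Il2ra and 261 without. It was also lower in cells with Mki67, a gene of cycling cells (169.8 against 488 CPM). Cd52 changed little with Dntt (420.1 against 507 CPM) and was higher with Ms4a1 (887 against 391 CPM).

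The same splits were made in the deleted cells, where no cell without contig had Il2ra and 4 had Ms4a1, so only Dntt, Kit and Mki67 gave positive groups to compare. These are values of the contrast on which the genes were chosen. Deleted cells without contig and with Dntt (9425 cells) had Cplx2 at 2.13, Lsp1 at 0.519, Cd52 at 5.50 and Myl10 at 0.0957 CPM. The folds below B220lo cells with Dntt were 202 (172 to 239), 403 (292 to 572), 76.5 (68.7 to 85.2) and 3427 (1660 to 8535). In this contrast 3.02% of 10333 genes were at least 4-fold lower and 4.75% at least 4-fold higher, with a median of 0.06, and Myl10 ranked 2, Lsp1 5, Cplx2 6 and Cd52 15 from the lowest. The B220lo cells with Dntt held Siglech at 91.1 CPM, and the deleted cells 0. With both Dntt and Kit required, 7878 deleted and 139 B220lo cells were left, and the folds were 176 for Cplx2, 218 for Lsp1, 62.7 for Cd52 and 3003 for Myl10. With Mki67, a cycling marker, the 4 genes were at 2.06, 0.421, 5.77 and 0.105 CPM, and without it at 2.40, 0.701, 4.91 and 0.0738 CPM.

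**Figure D4:**
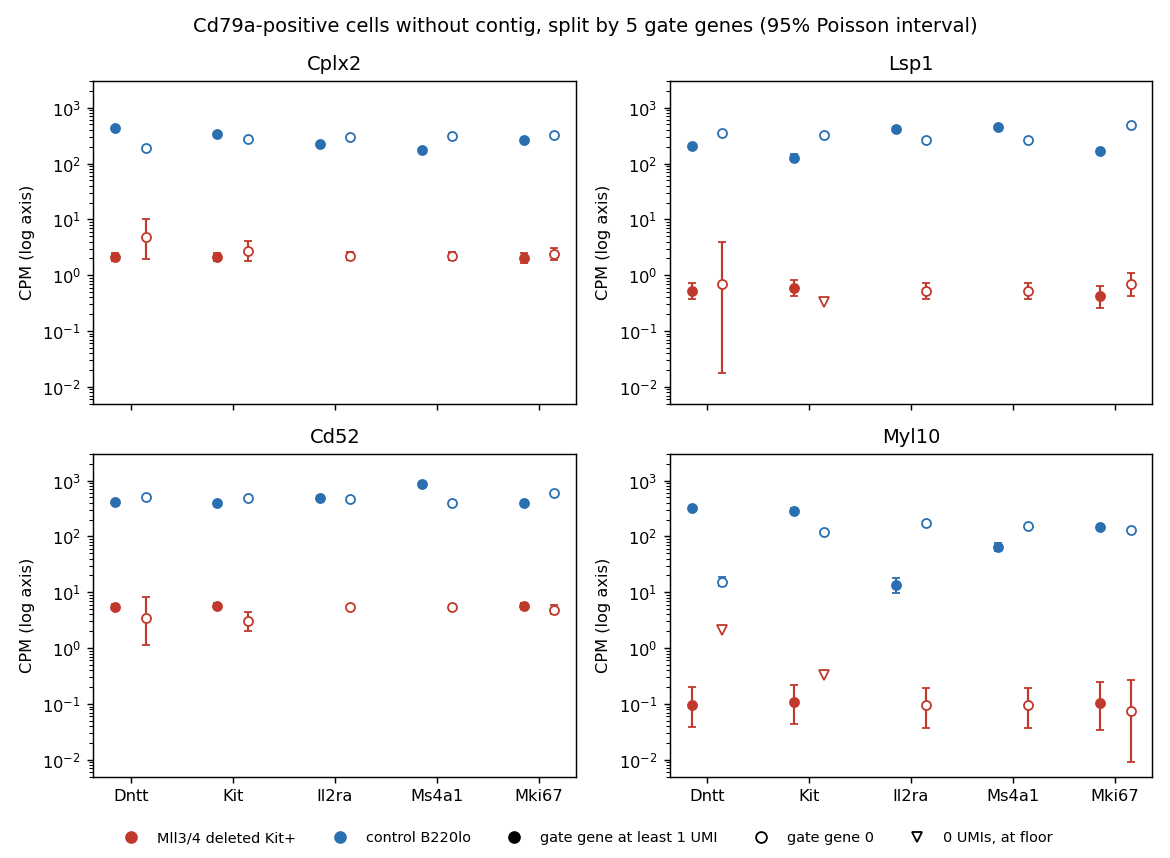
Levels (CPM, log axis) in Cd79a-positive cells without contig of the deleted and B220lo libraries, split by at least 1 UMI (filled) or 0 UMIs (open) of Dntt, Kit, Il2ra, Ms4a1 and Mki67, with 95% Poisson intervals. Groups under 20 cells are not drawn. B220lo Myl10 falls from 328 CPM with Dntt to 15.5 CPM without, and each B220lo point lies above the deleted points of the same panel.

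The members were not always found in the same cells. Of 244 B220lo cells without contig and with a Myl10 UMI at 2000 UMIs, 137 (56.1%) had Cplx2, 123 (50.4%) had Cd52 and 70 (28.7%) had Lsp1. Over all 2259 cells the shares were 38.2%, 45.6% and 47.0%. Cplx2 cells had Cd52 in 43.6% and Lsp1 in 46.6% of 864 cells, close to those shares. Among Lsp1 cells, 51.2% of 1061 had Cd52. In 9406 deleted cells without contig at 2000 UMIs, 1 cell had both Lsp1 and Cd52, and no other pair was seen. Only 2 of these cells had Lsp1 and 1 had Myl10, so few pairs could appear. Without thinning, all 12591 Cd79a-positive deleted cells were read, light-chain cells included. Cd52 was in 11 of 20 cells with 1 Lsp1 UMI, 9 of 9 with 2 and 11 of 12 with at least 3. It was in 5 of 204 cells with 1 Cplx2 UMI (2.45%) and 2 of 8 with 1 Myl10 UMI. Over all 12591 cells the share with Cd52 was 2.58%. The median depth of these groups was 8191 to 12786.5 UMIs, against 6458 over all cells, so the shares are not matched for depth.

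Heavy-chain clones were read from cells with the same V gene, J gene and CDR3. The deleted library held 25 clones of 20 or more cells, and cells of the same clone share their source. Among cells with heavy chain only, Cd52 was at 7.28 CPM (4.71 to 10.8) in 400 cells of single-cell clones, 8.95 (6.27 to 12.4) in 466 cells of clones of 2 to 19, and 8.57 (7.18 to 10.1) in 2044 cells of larger clones. Lsp1 was at 1.17 (0.318 to 2.98), 1.24 (0.404 to 2.90) and 0.959 CPM (0.537 to 1.58), and Cplx2 at 1.46, 3.23 and 2.62 CPM. The intervals overlapped for each of these 3 genes, so no difference by clone size was detectable. All 6 Myl10 UMIs were in 2 cells of single-cell clones. With light-chain cells included, single-cell clones (412 cells) had Cd52 at 29.8 and Lsp1 at 8.88 CPM, and 12 light-chain cells held 79 of their 104 Cd52 UMIs and 27 of their 31 Lsp1 UMIs.

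In cells with 0 Cd79a UMIs the deleted library was much closer to the control. Control Kit+ (10988 cells) and deleted cells (595) had Cd52 at 90.6 and 72.1 CPM, 1.26-fold lower in deleted (1.16 to 1.37), and Lsp1 at 34.4 and 23.5 CPM, 1.46-fold lower (1.27 to 1.69). Myl10 was at 14.3 and 4.91 CPM, 2.91-fold lower (2.14 to 4.05). Cplx2 was at 1.64 and 0.585 CPM, from 228 and 5 UMIs, 2.80-fold lower (1.18 to 8.72). In Mll3/4SI cells (11458) the ratio to control was 1.03 for Lsp1, 1.16 for Cd52, 1.27 for Myl10 and 0.381 for Cplx2 (0.296 to 0.486). B220lo cells without Cd79a (2166) had Cplx2 at 24.8, Lsp1 at 679.7, Cd52 at 731 and Myl10 at 9.30 CPM. The makeup of these cells differed between libraries, so narrower groups were compared next. These gates overlap, since a cell can pass several of them, so their folds are not independent. In the deleted library, gates of 367 (Mpo), 242 (Cd34) and 201 (F13a1) cells were drawn from the same 595 cells.

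Cells with at least 3 Mpo UMIs and 0 Cd79a had Cd52 at 69.7 CPM in deleted (367 cells) and 131 CPM in control Kit+ (6329 cells), 1.88-fold lower (1.71 to 2.07). Lsp1 was at 15.8 against 43.1 CPM, 2.73-fold lower (2.24 to 3.35), and Myl10 at 2.76 against 10.1 CPM, 3.66-fold lower (2.30 to 6.21). Cplx2 had 0 UMIs in the deleted cells, against 0.545 CPM. This 0 allows up to 0.461 CPM by the 3-count floor, at least 1.18-fold lower, and up to 0.566 CPM by the Poisson interval, whose ratio interval (0 to 1.08) contains 1, so the reading depends on the bound. With at least 3 Cd34 UMIs, a progenitor marker, the folds were 2.20 for Cd52, 2.23 for Lsp1 and 2.29 for Myl10, and with at least 3 F13a1 UMIs, a monocyte marker, 2.003, 2.31 and 1.86 (0.686 to 7.08 for the last). Cplx2 was at 0.434 against 0.474 CPM with Cd34 (ratio 0.916, 0.106 to 3.62) and had 0 UMIs against 0.264 CPM with F13a1 (floor 0.819 CPM, ratio interval 0 to 5.03). With Cd34 and with F13a1 no difference in Cplx2 was detectable at this depth. In deleted cells, Cd52 and Lsp1 were at 69.7 and 15.8 CPM with Mpo and at 5.46 and 0.523 CPM in Cd79a-positive cells without contig. In B220lo the order was the reverse, at 237 and 69.2 CPM with Mpo (79 cells) against 473 and 297 CPM. The Cd79a-positive values are those on which the genes were chosen, so this reversal was largely fixed by the choice.

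The Mll3/4SI ratios to control Kit+ also changed within these gates. With Mpo, Lsp1 was at 0.782 of the control (0.747 to 0.819) and Cd52 at 0.763 (0.743 to 0.783), and with Cd34 at 0.716 and 0.712, so both were below the control where the ungated ratios were above 1. With F13a1 the ratio of Lsp1 was 1.54 (1.40 to 1.69) and that of Cd52 0.909 (0.866 to 0.954). Myl10 was at 1.22 with Mpo and 1.19 with Cd34. The ratio of Cplx2 was 0.709 (0.458 to 1.10) with Mpo and 0.986 (0.468 to 2.32) with Cpa3, intervals that contain 1, and 0.450 (0.255 to 0.753) with Klf1. With Pf4 the ratios were 0.442 for Cplx2, 0.549 for Lsp1, 1.87 for Cd52 and 1.99 for Myl10, and with Cpa3 they were 0.435 for Lsp1, 1.06 for Cd52 and 0.590 for Myl10, so the direction for Lsp1, Cd52 and Myl10 differed from gate to gate.

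Other gates showed where the genes were detected in the controls. Lsp1 was at 1040.4 CPM in B220lo cells with Siglech and at 411 CPM in cells with Cd3e, a T-cell gene. Cd52 was at 433 and 2302 CPM in the same cells. Control Kit+ cells with Klf1, an erythroid factor, had 3.12 CPM of Lsp1, 5.49 of Cd52 and 0.960 of Myl10, the lowest of the control Kit+ gates. Their Cplx2, at 2.64 CPM (2.12 to 3.25), was above the 0.545 CPM with Mpo, 0.474 with Cd34 and 0.264 with F13a1, and below the 5.55 CPM with Pf4, a megakaryocyte gene. Cplx2 reached at most 12.6 CPM in any gate of cells without Cd79a, in B220lo cells with Cd3e. Myl10 was at 18.8 CPM in control Kit+ cells with Cd34 and at 0.960 to 10.1 CPM with Mpo, F13a1, Klf1, Pf4 or Cpa3.

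**Figure D5:**
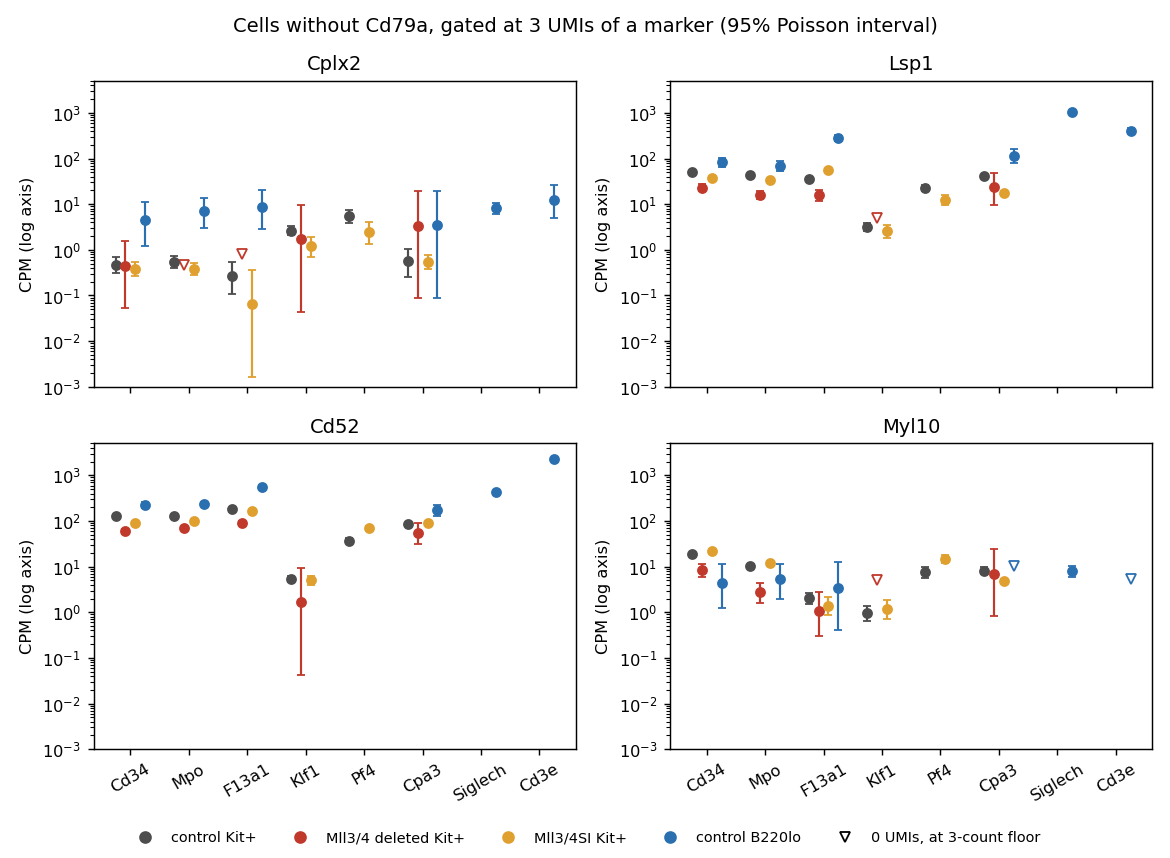
Levels (CPM, log axis) in cells with 0 Cd79a UMIs and at least 3 UMIs of the gate gene on the x axis, by library, with 95% Poisson intervals, for gates of at least 20 cells. With Mpo, deleted Cd52 lies at 69.7 CPM and control Kit+ at 131 CPM.

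The Cd79a limit was set at 3 UMIs, and cells on either side of it were compared without a test. In the deleted library, 243 cells with 2 Cd79a UMIs had Cplx2 at 2.19, Lsp1 at 4.39, Cd52 at 25.6 and Myl10 at 0 CPM. The 147 cells with 3 UMIs had 7.02, 5.27, 8.78 and 0 CPM, from 4, 3, 5 and 0 UMIs of these genes. A count of 3 amounts to 2.19 CPM in the 243 cells and to 5.27 CPM in the 147, and each 0 of Myl10 allows up to that level. The Cplx2 intervals overlapped (0.452 to 6.41 and 1.91 to 18.0 CPM). In B220lo, 890 cells with 2 UMIs had 118, 399, 466 and 20.3 CPM, and 586 cells with 3 UMIs had 126.0, 312, 379 and 27.9 CPM. Markers of other cells fell between the 2 steps, from 24878 to 8233 CPM in deleted and from 17938 to 9131 CPM in B220lo.

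Lists of genes of related function were read in the same contrast of cells without contig, where 5.47% of all genes were 4-fold lower and 4.73% higher, with a median of 0.01. Each of the first 4 lists holds 1 member, which was chosen for being lower and is included in its count. Of 25 genes for complexins and SNARE proteins, 19 had enough UMIs, and Cplx2 was the only one past 4-fold (1 lower, 0 higher, median -0.24 on the log2 scale). The other complexins, Cplx1, Cplx3 and Cplx4, had 0 UMIs in both libraries. Of 15 genes for myosin light chains and partners, 4 were at least 4-fold lower, Myl10 among them, and 0 higher (median -0.50). Besides Myl10 these were Myl4, an essential light chain, with 39 UMIs in deleted and 5123 in B220lo cells (0.523 against 374 CPM, 715-fold lower), Myo1f at 1.96 against 14.4 CPM and Myo1e at 18.6 against 99.8 CPM, both unconventional myosins. Myl4 was at 134 CPM in B220lo cells with Dntt and at 618 CPM in those with heavy chain only, so its order over these cells was the reverse of that of Myl10 (328 and 27.8 CPM).

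All 24 leukocyte actin-binding genes had enough UMIs, and 5 were lower, Lsp1 among them, and 0 higher (median -0.88), against 5.47% and 4.73% of all genes. After Lsp1 came Swap70 (7.51 against 95.5 CPM), an actin-binding exchange factor, Gsn (9.02 against 96.2 CPM), which severs actin filaments, and Dock8 (35.7 against 211 CPM), a Cdc42 exchange factor. Of 16 genes for GPI-anchored proteins, 4 were lower, Cd52 among them, and 3 higher (median -0.81). Bst1 (1.10 against 78.6 CPM), a surface enzyme of stromal and B-lineage cells, Thy1 (0.523 against 18.3 CPM) and Cd48 (16.3 against 121 CPM) were lower with Cd52. Ly6c1 was higher, at 567 against 3.58 CPM, as were Ly6a (149 against 18.8 CPM) and Nt5e (4.56 against 0.365 CPM). The list with Cd52 therefore had genes at both ends.

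Of 20 pro-B genes, 2 were lower and 1 higher (median 0.37). Vpreb2, a second gene for the surrogate light chain, had 29 UMIs in deleted cells and 1767 in B220lo cells (0.389 against 129 CPM), and Cd93 was at 4.88 against 174 CPM. Vpreb2 has a near-identical copy in Vpreb1, so its split of reads is uncertain. Of 19 genes of later B cells, 13 were lower and 0 higher (median -4.63), among them Cd74 (1.69 against 1117 CPM), Spib (0.496 against 298 CPM), Fcrla (2.08 against 395 CPM) and Ms4a1 (0.0536 against 133 CPM). Markers of other cells had 16 lower and 3 higher of 27 (median -2.81), of which the lowest ratio was that of Siglech (0 against 64.3 CPM). With Dntt required in both libraries, later B genes were at 8 lower of 16 (median -2.74), the pro-B list at 2 lower and 1 higher of 20 (median -0.02) and the other markers at 5 lower and 5 higher of 24. The lists of SNARE, myosin, actin and GPI genes then had 1 of 19, 2 of 13, 4 of 24 and 4 of 16 lower, members included, and 0, 0, 0 and 3 higher. In that contrast 3.02% of 10333 genes were lower and 4.75% higher.

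With heavy chain only, 3.86% of all genes were 4-fold lower and 7.83% higher, with a median of 0.03. The counts of lower and higher genes were 1 and 0 of 18 for SNARE genes, 3 and 1 of 14 for myosin genes, 4 and 0 of 24 for actin-binding genes and 3 and 4 of 14 for GPI-anchored proteins. Pro-B genes had 2 and 6 of 20, later B genes 12 and 0 of 19, and markers of other cells 5 and 7 of 21. Among the pro-B genes higher in deleted cells were Kit (382 against 2.73 CPM) and Dntt (1336 against 24.8 CPM), so the 2 libraries differed more in Dntt here than without contig.

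Neighbouring genes were looked at to see how far each difference reached along the chromosome. Lsp1 lies between Tnni2 and Tnnt3, troponin genes with 1 and 0 UMIs in deleted and 69 and 16 in B220lo cells without contig. Tnni2 was at 0.0134 against 5.03 CPM (ratio 0.00266, 6.65e-05 to 0.0153), and Tnnt3 at 0 against 1.17 CPM (ratio interval 0 to 0.0477), so both genes that flank Lsp1 were lower in deleted cells too. Next to Tnnt3 lies Mrpl23, a mitochondrial ribosomal protein gene at 144 against 143 CPM. Beyond Tnni2, Ctsd (a lysosomal protease) was at 57.7 against 52.1 CPM. Next to Cd52, Ubxn11 was at 8.17 against 14.4 CPM, Sh3bgrl3 was higher at 1031 against 547 CPM and Cep85 higher at 174 against 41.9 CPM, 4.16-fold (3.83 to 4.53). Around Myl10, Cux1 was at 172 against 396 CPM and Fis1 at 282 against 300.1 CPM. Around Cplx2, Hrh2 (a histamine receptor) was at 2.15 against 9.63 CPM, Sfxn1 at 85.3 against 73.1 CPM and Thoc3 at 44.2 against 58.6 CPM. By the ratio of CPM, Hrh2 was 0.223 of its B220lo level (0.176 to 0.283), and on log2(CPM + 1), the scale of the 4-fold rule, its ratio was -1.76. Among the other neighbours with at least 100 UMIs in the higher library, none was 4-fold lower by either measure. That limit leaves out Tnni2, Tnnt3 and, near Myl10, Sh2b2 (1.22 against 5.18 CPM, ratio 0.236, 0.171 to 0.326), besides genes with fewer than 10 UMIs in B220lo.

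Profiles over groups of cells gave each member its closest genes. Over 11 groups of at least 50 cells (library by contig state, Cd79a 1 or 2, and Cd79a 0), Pearson correlations of log2(CPM + 1) were taken against 12334 genes. Groups of the same library share depth and preparation, and the 11 groups include the deleted and B220lo cells on which the members were chosen to be low and high. High correlations between members are therefore largely fixed by the choice, and these are descriptions with no test. Cplx2 was closest to Steap4 (0.991), Ddc (0.991) and Slc12a3 (0.990), each at most 0.992 CPM in deleted and 15.5 to 80.8 CPM in B220lo cells without contig. Lsp1 was closest to Cd52 (0.993), Themis2 (0.991) and Dennd1c (0.989), and Cd52 to Lsp1, Samhd1 (0.989) and Klf13 (0.989). Myl10 had no gene as close: Fam192a (0.939), Cdk5r1 (0.935) and Arfgap2 (0.926) led. Between members, the correlation was 0.755 for Cplx2 with either Lsp1 or Cd52 and 0.680 for Cplx2 with Myl10, 0.811 for Lsp1 with Myl10 and 0.822 for Cd52 with Myl10.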

How the data were processed

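Single-cell RNA from 4 sorted marrow libraries, 1 per group, was counted by the authors with Cell Ranger 7.1.0 on mm10, per the submitters' processing notes. The deposited matrices hold UMI counts per gene and barcode, and receptor contigs came as deposited annotation tables. Strand use is not given in the sources used here. Computed here: barcodes with at least 1000 UMIs, 500 genes and at most 10% mitochondrial UMIs were kept, and Scrublet (scanpy 1.11.5, expected rate 8%) removed 3537 with a score above 0.25. CPM came from summed UMIs, with exact Poisson and binomial intervals at 95% (scipy 1.17.1). Ratios on log2 scale used a pseudocount of 1 CPM. The count procedure was tested on simulated Poisson counts. These lack the concentration in few cells seen for Cd52, Lsp1 and Myl10, so the simulation does not check the intervals for such counts. No test was run, with 1 library per group. Gates are UMI limits, not cell types.

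The 4 genes and the gene lists were chosen with earlier results of these data known. Named genes are the members, list genes past 4-fold (at most 4 per list, largest ratios first), up to 3 coding neighbours per side and the 3 closest profiles. Names added after values were seen are those used as markers, the higher GPI-anchored genes and the other complexins. Alternatives are in the closing section.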

Additional observations from a re-analysis of the deposited data

How the results depend on the processing

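Of 128 alternative log2 ratios of the members, 128 were below 0 and 127 at or below -2, the exception being Myl10 with heavy chain only at a pseudocount of 10 CPM. The members were chosen for being low in these deleted cells, so the signs were largely fixed by the choice and give no further support. Log2 ratios and shares of cells that moved by more than their counting interval follow, with counts of genes that differed by more than 1.5 times from those reported (638 lower and 552 higher without contig, 399 and 809 with heavy chain only), and the cause was not tested. The other counts were 459 to 886 lower and 426 to 640 higher without contig, and 325 to 551 lower and 803 to 1095 higher with heavy chain only. The Dntt, Dntt and Kit, other-marker and clone settings were chosen after seeing the data. With every deposited barcode, Lsp1 stood at -7.29 and -6.63 for Myl10 (over B220lo, no contig). With doublets kept, Lsp1 stood at -7.29 and -6.64 for Myl10 (over B220lo, no contig). With at least 1 Cd79a UMI, Cplx2 stood at -6.02, -7.37 for Lsp1, -5.96 for Cd52 and -6.16 for Myl10 (over B220lo, no contig). There Cplx2 stood at -6.02, -4.62 for Lsp1 and -5.31 for Myl10 (over Kit+, no contig). With at least 10 Cd79a UMIs, Cplx2 stood at -6.70 and -7.33 for Myl10 (over B220lo, no contig). On totals without immunoglobulin, ribosomal and mitochondrial genes, Myl10 stood at -7.26 (over B220lo, no contig). With a pseudocount of 10 CPM, Cplx2 stood at -4.59, -4.87 for Lsp1, -4.96 for Cd52 and -3.89 for Myl10 (over B220lo, no contig). There 240 genes were 4-fold lower and 145 genes were 4-fold higher (over B220lo, no contig). Likewise Cplx2 stood at -3.76, -4.22 for Lsp1, -4.33 for Cd52 and -1.88 for Myl10 (over B220lo, heavy chain only). In turn 186 genes were 4-fold lower and 227 genes were 4-fold higher (over B220lo, heavy chain only). Likewise Cplx2 stood at -5.39, -3.19 for Lsp1, -3.82 for Cd52 and -3.78 for Myl10 (over Kit+, no contig). With cells thinned to 2000 UMIs, Lsp1 stood at -8.41, -6.58 for Cd52 and -6.72 for Myl10 (over B220lo, no contig). There Lsp1 stood at -8.01, -5.98 for Cd52 and -3.18 for Myl10 (over B220lo, heavy chain only). Likewise 516 genes were 4-fold higher (over B220lo, heavy chain only). In turn Lsp1 stood at -7.26 (over Kit+, no contig). With cells thinned to 1000 UMIs, the share was 0.228% for Cplx2 and 0.446% for Cd52 (in deleted, no contig). There the share was 0.172% for Cplx2, 0.412% for Cd52 and 0% for Myl10 (in deleted, heavy chain only). Likewise the share was 23.8% for Cplx2, 30.8% for Lsp1, 30.8% for Cd52 and 6.68% for Myl10 (in B220lo, no contig). In turn the share was 18.7% for Cplx2, 27.3% for Lsp1 and 28.2% for Cd52 (in B220lo, heavy chain only). Without thinning, the share was 1.58% for Cplx2, 0.187% for Lsp1, 2.43% for Cd52 and 0.0725% for Myl10 (in deleted, no contig). There the share was 1.99% for Cplx2, 0.412% for Lsp1 and 2.68% for Cd52 (in deleted, heavy chain only). Likewise the share was 53.1% for Cplx2, 64.2% for Lsp1, 60.4% for Cd52 and 15.9% for Myl10 (in B220lo, no contig). In turn the share was 52.4% for Cplx2, 61.9% for Lsp1, 63.2% for Cd52 and 6.89% for Myl10 (in B220lo, heavy chain only). With Kit required, Cplx2 stood at -6.75, -6.33 for Lsp1, -5.84 for Cd52 and -8.03 for Myl10 (over B220lo, no contig). There 98 of 7634 genes were 4-fold lower, against 638 of 11669 reported, with 161 B220lo cells left (over B220lo, no contig). Likewise Cplx2 stood at -4.62, -5.52 for Lsp1, -5.63 for Cd52 and -5.69 for Myl10 (over B220lo, heavy chain only). These ratios rest on 18 B220lo cells, with 24, 28, 139 and 18 UMIs of the 4 genes. In turn 17 of 5668 genes were 4-fold lower, against 399 of 10337 reported (over B220lo, heavy chain only). A gene lower in deleted cells must reach the UMI limit in these 18 cells. The fall from 399 to 17 therefore cannot be read as fewer differences. Likewise Cd52 stood at -4.25, from 11 UMIs in the 7 control Kit+ cells left (over Kit+, no contig). Among genes with at least 500 UMIs, 300 genes were 4-fold lower (over B220lo, no contig). There 187 genes were 4-fold lower and 409 genes were 4-fold higher (over B220lo, heavy chain only). With Dntt required, Cplx2 stood at -7.11, -7.11 for Lsp1, -6.02 for Cd52 and -8.23 for Myl10 (over B220lo, no contig). With Dntt and Kit required, Cplx2 stood at -6.90, -6.35 for Lsp1, -5.75 for Cd52 and -8.21 for Myl10 (over B220lo, no contig). In cells with under 1% of UMIs from other markers, Lsp1 stood at -7.93 and -6.74 for Cd52 (over B220lo, no contig). There Lsp1 stood at -7.33 and -6.06 for Cd52 (over B220lo, heavy chain only). Likewise Cd52 stood at -6.01 (over Kit+, no contig). No control Kit+ cells with heavy chain only were found, so that contrast has no values. With Spearman correlation, 0, 1, 0 and 0 of the 3 closest genes of Cplx2, Lsp1, Cd52 and Myl10 were shared with the Pearson choice. No paired analysis was possible because each group has 1 library. The small groups are limited by their few cells and counts, and leaving out a replicate was not possible.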
